A study of Cynodon dactylon with 6 samples.

Results

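Leaves of bermudagrass (Cynodon dactylon) heated at 42 °C for 12 h were compared with leaves of unheated controls. Bermudagrass is a warm-season turf and forage grass. The heat 12 h group holds 2 libraries and the control group, labelled 0 h, holds 2, together 4 of the 6 libraries of the series. The other libraries, heated for 2 h, entered the abundance filter, the scaling and the estimate of the spread between replicates. They are otherwise given only as values beside the result. All groups were wild-type (WT) seedlings, 10 days old at treatment, and leaf RNA was taken from each. The columns of the read-count table were assigned to the groups by their names, which equal the labels of these samples. No unheated sample at 12 h was analysed here, so 12 h of heat and 12 h of elapsed time cannot be told apart. Whether a replicate is another plant, another pool or another library of the same RNA is not stated in the labels, so p-values measure only the spread between these libraries, which may be technical.

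In plants, heat unfolds proteins, and heat shock transcription factors switch on genes for chaperones, proteins that keep others folded. The transcripts of a green leaf are normally led by those for photosynthesis, such as the chlorophyll-binding proteins of the light-harvesting antenna and the small subunit of Rubisco, the carbon-fixing enzyme. When heat lasts for hours, the pool of leaf transcripts can be remodelled beyond the first chaperone response. None of these families could be followed by name. Expression was counted per unigene, a gene-level unit of a transcript assembly, as far as the form of the IDs shows. Gene names, sequences and genome positions are not paired with the IDs in the files. The labelled tissue could for the same reason not be checked against leaf markers. The results are therefore ordered by the size of the change, by abundance and by single unigenes.

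The libraries held 8257635 and 9326725 assigned reads for heat 12 h, and 9086743 and 6313500 for control. Of 111743 unigenes, 25828 passed an abundance filter and were tested, and these held 98.6% to 99.3% of the reads of a library. At these depths 3 reads, the level below which a unigene with no read could still be present, correspond to 0.322 to 0.475 CPM (counts scaled to library size). This floor uses library totals alone, while the other CPM values given here also carry a scaling factor per library. These are bulk leaf samples, in which fewer cells of a type and less RNA per cell cannot be told apart. All levels are shares of the RNA sequenced, and the amount of RNA per leaf was not measured.

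After 12 h at 42 °C the composition of the leaf transcript pool differed widely from that of the controls. To turn the read profile of a heat 12 h library into that of a control library, between 41.3% and 41.9% of all reads would have to be placed on other unigenes, in each of the 4 possible pairs. This distance was 7.77% between the heat 12 h libraries and 4.81% between the controls. For the 2 h libraries the distance from the controls was 20.6% to 22.9%. The loss was concentrated and the gain was spread out. Averaged over replicates, 41.2 percentage points of reads moved, and 50% of the gain was collected by 880 unigenes, while 50% of the loss came from 44. The largest single gain was 3.59 points and the largest single loss 1.95 points. With 2 libraries against 2, a two-sided exact permutation test cannot give a p below 0.333, so these library values are given without a test.

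The concentration of reads on few unigenes changed accordingly. The 10 most abundant unigenes of a library took 7.10% and 6.07% of its reads in the heat 12 h libraries, against 11.9% in each control library. The 1000 most abundant took 42.2% and 40.9% in the heat 12 h libraries, against 58.7% and 58.9% in the controls. The ranges of the groups did not overlap at either depth of the list. Only at the very top was the order the other way: the first unigene alone took 3.94% and 3.33% after 12 h, against 2.11% and 2.19% in the controls. On the FPKM scale, which divides reads by unigene length and library total, 50% of the total lay on 2155 and 2449 unigenes in the heat 12 h libraries, against 570 and 542 in the controls.

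**Figure D1:**
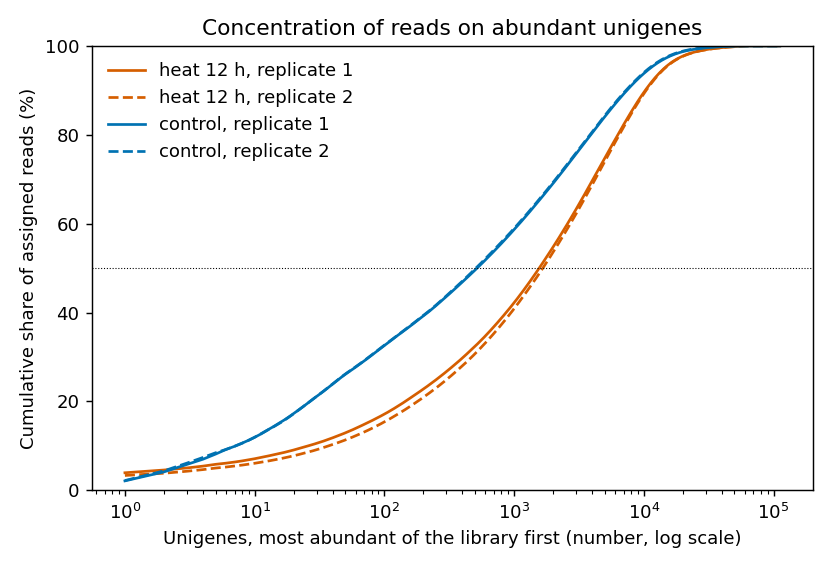
Cumulative share of assigned reads (%, vertical axis) on the most abundant unigenes of each library, counted from the top (horizontal axis, log scale), for the 2 heat 12 h and the 2 control libraries; the dotted line marks 50%. The heat 12 h curves start higher at the first unigene, and at 10 unigenes the control curves already lie above them. The first 1000 unigenes hold 42.2% and 40.9% of the heat 12 h reads and 58.7% and 58.9% of the control reads.

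The FPKM table shows the same redistribution as levels per length. At 1000 FPKM or more there were 60 and 50 unigenes in the heat 12 h libraries, against 88 and 86 in the controls. At 10 FPKM or more there were 17403 and 17798 in the heat 12 h libraries, against 12330 and 12073 in the controls. The very abundant class was thus smaller after 12 h, and the middle class larger, in both replicates. The number at 100 FPKM or more was 1307 and 1313 after 12 h, against 1109 and 1154 in the controls. FPKM are scaled to library totals, so a loss of the most abundant transcripts raises the value of all others.

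Individual unigenes crossed these levels in both directions. Of the 48 tested unigenes at 1000 FPKM or more in both heat 12 h libraries, 18 were at that level in both controls, 28 were below it in both, and 1 was below 100 FPKM in both. Of the 81 at 1000 FPKM or more in both controls, 57 were below that level in both heat 12 h libraries and 10 were below 100 FPKM. At 100 FPKM or more in both heat 12 h libraries stood 1167 unigenes, of which 30 were below 10 FPKM in both controls. At 100 FPKM or more in both controls stood 1054, of which 33 were below 10 FPKM in both heat 12 h libraries. Picking unigenes by a high level in 1 group favours a lower level in the other, so these counts are descriptive.

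Across all unigenes the comparison asked which transcripts differed after 12 h of heat. In edgeR's quasi-likelihood test 7132 unigenes were higher, 27.6% of those tested, and 6291 were lower, 24.4%, with a Benjamini-Hochberg adjusted p below 0.05, so that 52.0% of the unigenes tested differed. Calls of this kind include small changes: 33.3% of the risers and 37.3% of the fallers had an estimated change under 2-fold. A stricter test, edgeR's TREAT, asks whether a change exceeds 2-fold in place of only differing from 0. It called 2462 unigenes higher by more than 2-fold, 9.53% of those tested, and 2464 lower, 9.54% (Benjamini-Hochberg adjusted p below 0.05). By this test rises and falls were nearly equal in number.

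Among the risers the median log2 fold change was 1.37 (quartiles 0.84 and 2.16), and among the fallers -1.28 (quartiles -2.08 and -0.77), while the median over all unigenes tested was 0.12. By estimate 2046 unigenes were at least 4-fold higher and 1700 at least 4-fold lower, and 406 were at least 16-fold higher and 353 at least 16-fold lower. The typical standard error was 0.25 for a riser and 0.18 for a faller. Because groups hold 2 libraries each, every library can be inspected. All 7132 risers were above both controls in both heat 12 h libraries, and 6289 of the 6291 fallers were below both controls. With so few libraries a call nearly requires such a separation, so these counts add nothing to the test. Without regard to the test, 43.2% of unigenes lay above both controls in both heat 12 h libraries and 34.7% lay below.

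For the typical unigene the difference between groups was several times that between replicates. Over the 11958 unigenes with a mean of at least 10 CPM, the median absolute log2 difference was between 0.60 and 0.63 in the 4 pairs of a heat 12 h with a control library. It was 0.15 between the heat 12 h replicates and 0.13 between the controls. A difference of 2-fold or more separated 30.7% to 31.9% of these unigenes in the pairs between groups, against 1.63% between the heat 12 h replicates and 0.694% between the controls. In all 4 pairs at once, 3080 risers were at least 2-fold higher and 2822 fallers at least 2-fold lower, on the log2(CPM + 0.5) scale. The risers and fallers were picked by the same values, and no such count was made over all tested, so these counts are descriptive.

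**Figure D2:**
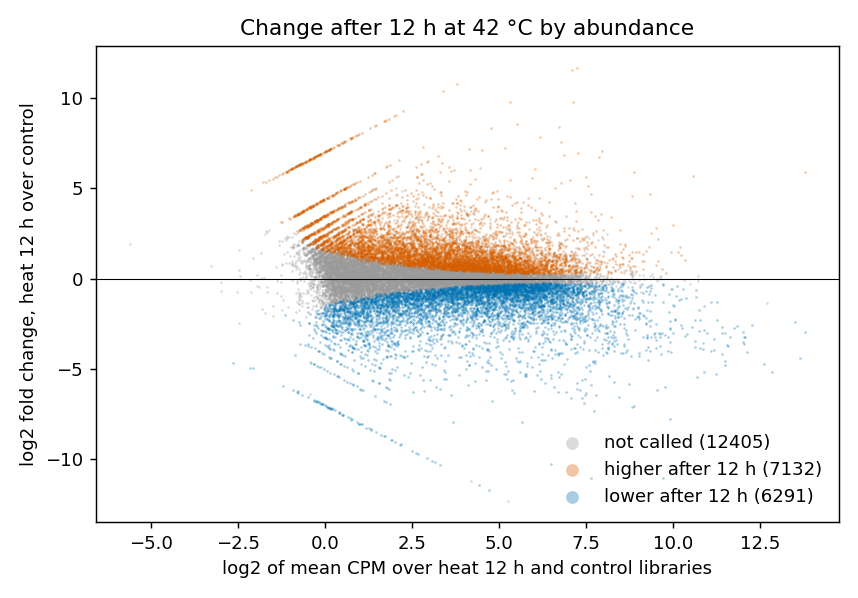
Each point is 1 of the 25828 tested unigenes, with the log2 of its mean CPM over the heat 12 h and control libraries (horizontal axis) and its log2 fold change of heat 12 h over control (vertical axis); colours mark 7132 unigenes called higher, 6291 called lower and 12405 not called. The most abundant unigenes lie mostly below 0, and the slanted streaks at the left are unigenes with 0 or few reads in 1 group, whose fitted change depends on the prior count.

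The unigenes called lower had made up most of the leaf transcript pool. They took 29.5% and 29.1% of the reads in the heat 12 h libraries, against 68.7% and 69.1% in the controls. The unigenes called higher took 38.5% and 37.2% in the heat 12 h libraries, against 10.1% in each control library. In the 2 h libraries the unigenes called lower at 12 h took 57.9% and 54.8%, and those called higher took 17.2% and 17.8%. These sets were picked by the comparison itself, so the gap between heat 12 h and control is a description of its size and no further test. Leaving out the most abundant unigene of the heat 12 h libraries, the risers took 34.6% and 33.9% after 12 h, against 10.1% and 10.01% in the controls. On the FPKM scale the fallers took 24.1% ± 0.435 of the total after 12 h and 64.7% ± 0.0841 in the controls (SD, n = 2 each).

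**Figure D3:**
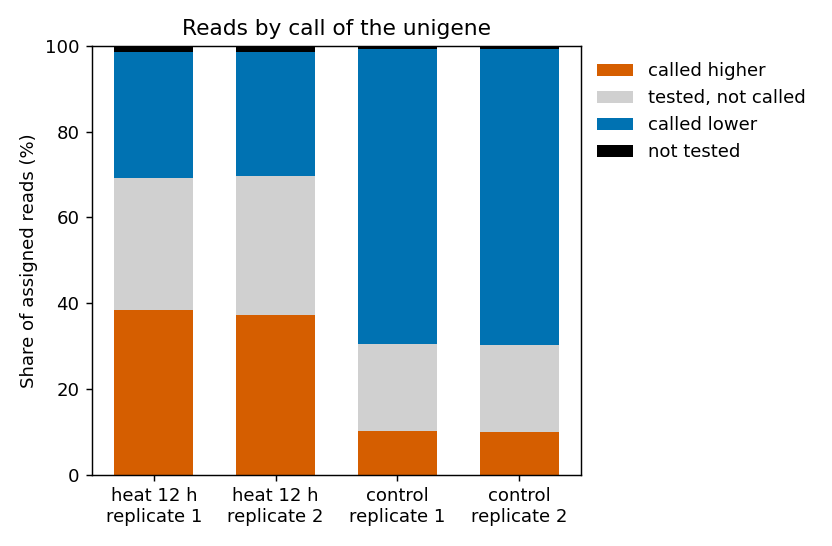
Share of assigned reads (%, vertical axis) on unigenes called higher, not called, called lower and not tested, in each heat 12 h and each control library. Unigenes called lower fill 29.5% and 29.1% of the heat 12 h bars and 68.7% and 69.1% of the control bars.

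The 2464 unigenes lower by more than 2-fold carried 11.4% and 11.3% of the reads in the heat 12 h libraries, against 48.9% and 49.4% in the controls. The 2462 higher by more than 2-fold carried 17.5% and 16.2% in the heat 12 h libraries, against 1.98% in each control library. Of the strong fallers 362 were among the 1000 most abundant unigenes by mean CPM over both groups, and 1103 were in the class of the 15828 scarcest. Of the strong risers 75 were among the first 1000 and 1696 in the scarcest class. Of all 25828 tested, 1000 and 15828 unigenes fall in these classes, so these counts are descriptive. The median level of a strong faller was 6.02 CPM after 12 h and 32.5 CPM in the controls, and that of a strong riser 11.2 CPM after 12 h and 1.93 CPM in the controls. After 2 h these fallers still took 38.8% and 35.6% of the reads, and these risers 5.36% and 5.29%.

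Direction was then described by abundance. Unigenes were ranked by their mean CPM over the heat 12 h and control libraries. The rank uses the same values as the fold change, and a unigene that is high in 1 group alone enters the top of the list through that group. Of the first 100, 83 were lower and 10 higher, against 24.4% lower and 27.6% higher among all tested, and the median log2 fold change was -2.74 (quartiles -3.58 and -1.06), against 0.12 over all. By TREAT 69 of these 100 were lower by more than 2-fold and 6 higher. Together they took 14.1% and 12.6% of the reads in the heat 12 h libraries, against 31.8% and 31.9% in the controls. Of the first 50, 46 were lower and 1 was higher.

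The result for the top of the list depended on which libraries set the rank, in rankings chosen after seeing the data. By the 12 h libraries alone, the first 100 had 43 higher and 39 lower, and the median log2 fold change turned to 0.12, that of all unigenes. By the controls alone none was higher and 94 were lower, with a median of -3.03. Each of these rankings favours the group that sets it. By mean log2(CPM + 0.5) over both groups, 11 were higher and 75 lower, and the median was -2.05. By the 2 h libraries, 15 were higher and 69 lower, and the median was -2.21. This contrast does not compare the 2 h libraries, but they enter its filter, scaling and estimate of the spread. Their read profiles lay 20.6% to 22.9% from the controls and 34.6% to 38.2% from heat 12 h, so this ranking is not neutral between the groups. The unigenes that led the heated leaf after 12 h were thus about as often higher as lower, and those that led the controls or the 2 h leaves were mostly lower.

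Of the next 900 unigenes by rank, 515 were lower (57.2%) and 180 higher (20%), and their median was -0.57. These 900 held 25.1% and 24.95% of the reads after 12 h and 25.5% and 25.9% in the controls. Among the 9000 that follow the calls were closer to balance, 3033 lower (33.7%) and 2665 higher (29.6%), and the median was -0.02. That class took 49.4% and 50.7% of the reads in the heat 12 h libraries, against 36.0% and 35.7% in the controls. Among the 15828 scarcest unigenes tested, 4277 were higher (27.0%) and 2660 lower (16.8%), and the median was 0.27. Over all tested these shares were 27.6% and 24.4%, so in this fit the class differed mainly by fewer called falls. Its median standard error was 0.39. A filter that keeps a unigene for its level in 2 libraries alone can favour calls in either direction. With no filter on low counts, this class had 4410 higher and 2255 lower. Why rises outnumbered falls here was not tested. The 15828 scarcest took 9.95% and 10.3% of the reads after 12 h, against 5.88% and 5.74% in the controls.

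By the first ranking, the excess of falls among the first 100 held under each scaling run, but the balance in the lower classes did not. Trimmed mean of M-values (TMM) scaling, used here, set factors of 1.30 and 1.34 for the heat 12 h libraries and 0.870 and 0.850 for the controls. With library totals alone the median of all unigenes stood at 0.74 in place of 0.12, the first 100 still had 75 lower and 17 higher, the next 900 had 365 lower and 366 higher, and the 9000 after them turned to 1423 lower and 5423 higher. Of all calls 80.7% were then higher, in place of 53.1%. Size factors of DESeq2, used in edgeR, gave a split of 49.1% higher, and the first 100 had 83 lower and 9 higher. Ranked by mean FPKM, a level per length, the first 100 had 72 lower and 16 higher, and their median was -2.65.

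The 10 most abundant unigenes by the same ranking show these shifts one by one. The first, which led the controls, had 3145 and 3372 CPM after 12 h, against 24493 and 25916 CPM in the controls. Its log2 fold change was -2.95 with an SE of 0.13 (edgeR adjusted p = 2.18e-09), and in FPKM it stood at 1400 and 1552 after 12 h, against 7318 and 7573 in the controls. Replicates lay close together and the groups far apart.

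The second unigene went the other way. It had 30648 and 25101 CPM after 12 h, against 441 and 489 CPM in the controls, and its log2 fold change was 5.91 ± 0.18 (SE; edgeR adjusted p = 1.29e-10). Per length its level was 50970 and 43322 FPKM after 12 h, the highest of any unigene in both heat 12 h libraries, against 491 and 533 FPKM in the controls. It was the first by abundance after 12 h, and in the controls it ranked 290. The transcript thus became the most abundant one of the heated leaf, and it was the single riser among the first 10.

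The third and the fifth unigenes belong to the same component of the assembly, so that they may be related or share reads. The third had 1258 and 1095 CPM after 12 h, against 23377 and 25918 CPM in the controls; the log2 fold change was -4.39, with an SE of 0.17 and an edgeR adjusted p of 8.12e-10. The fifth had 409 and 381 CPM after 12 h, against 13805 and 15204 CPM in the controls, a log2 fold change of -5.20 ± 0.17 (edgeR adjusted p = 1.81e-10). Both fell more than the first. Per length the third was at 1836 and 1664 FPKM after 12 h, against 23687 and 25659 FPKM in the controls, where no unigene was higher.

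The fourth, the seventh, the eighth, the ninth and the tenth also fell, by between 2.43 and 4.72 on the log2 scale. The seventh fell furthest of these, to 496 and 431 CPM after 12 h, against 11953 and 12437 CPM in the controls. The eighth stood at 1598 and 1259 CPM after 12 h, against 8297 and 8606 CPM in the controls. Its values at 2 h, 13324 and 11353 CPM, were above those of both other groups.

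The sixth unigene was not called. It had 4806 and 2618 CPM after 12 h, against 13285 and 5929 CPM in the controls; the log2 fold change was -1.37, with an SE of 0.59 and an edgeR adjusted p of 0.143. Both heat 12 h values lay below both controls, but the nearest values of the groups, 4806 and 5929 CPM, lay closer together than the replicates of either group. Its 95% interval ran from -3.12 to 0.38, so neither a large fall nor no change can be told from these libraries. It was called lower in 2 of the 14 other settings, DESeq2 (adjusted p = 0.041) and edgeR without control replicate 2 (adjusted p = 0.0287), and not with the replicate number as a block (edgeR adjusted p = 0.157); the adjusted p over all 14 ran up to 0.446. The implied length of this unigene was 7233 bases, the longest of the 10.

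**Figure D4:**
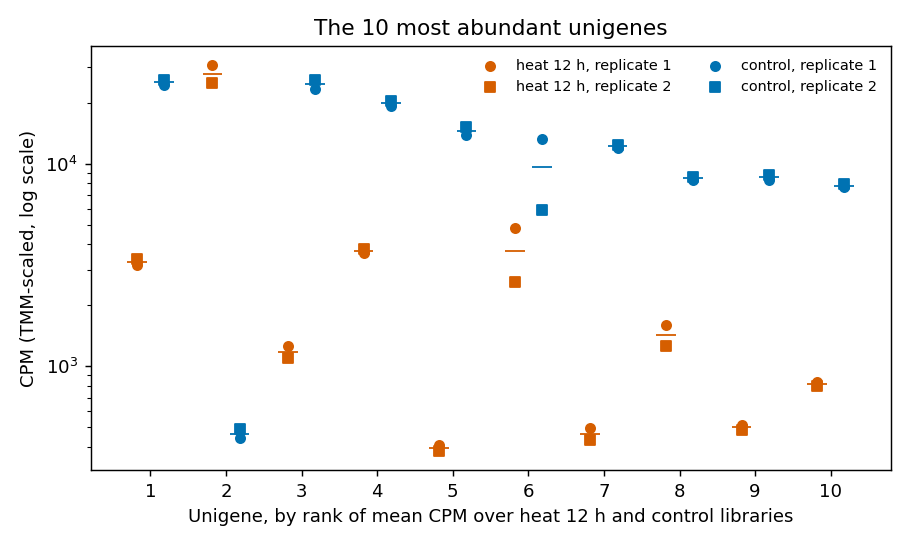
CPM after TMM scaling (vertical axis, log scale) of the 10 unigenes with the highest mean over the heat 12 h and control libraries (horizontal axis, by rank), with 1 point per library and a line at each group's mean; heat 12 h points are drawn left of the control points. The second unigene is higher after 12 h, at 30648 and 25101 CPM against 441 and 489 CPM, the others are lower, and the sixth has widely spaced replicates in both groups.

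The largest changes that rest on reads in every library were found among unigenes with at least 10 reads in each of the 4 libraries and a mean of at least 100 CPM in 1 of the groups. In all 2243 unigenes met these limits, of which 517 rose (23.05%) and 1264 fell (56.4%) without overlap between the groups, against 27.6% called higher and 24.4% called lower among all tested. The limits favour unigenes that were high in at least 1 group, so these shares are descriptive. The 2 largest rises and the 2 largest falls are given by ID.

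The largest rise was that of c82800_g1. It had 5714 and 5674 reads after 12 h, against 22 and 26 reads in the controls, or 538 and 459 CPM after 12 h against 2.80 and 4.88 CPM in the controls. The log2 fold change was 7.07 ± 0.21 (SE; edgeR adjusted p = 3.54e-10), and the ratio of the group means was 129.7. Its place in the abundance order was 113 after 12 h and 16273 in the controls. In FPKM it stood at 465 and 411 after 12 h, against 1.66 and 2.80 in the controls. At 2 h it was at 11.5 and 13.02 CPM, so most of the rise lay between 2 h and 12 h, where the log2 fold change of heat 12 h over heat 2 h was 5.34 ± 0.18 (SE; edgeR adjusted p = 1.79e-09).

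The next rise was that of c86879_g3. It had 3843 and 3090 reads after 12 h, against 16 reads in each control library. This made 362 and 249.8 CPM after 12 h, against 2.04 and 3.01 CPM in the controls; the log2 fold change was 6.96, with an SE of 0.28 and an edgeR adjusted p of 3.07e-07. Unlike c82800_g1 it was already at 417 and 349 CPM at 2 h. Its log2 fold change of heat 12 h over heat 2 h was -0.32 ± 0.19 (SE; edgeR adjusted p = 0.197), which did not pass the test. In FPKM it was at 213 and 152 after 12 h, against 0.81 and 1.16 in the controls.

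The largest fall was that of c72836_g2. It had 107 and 94 reads after 12 h, against 14451 and 10689 reads in the controls. In CPM these were 10.1 and 7.599 after 12 h, against 1842 and 2008 in the controls; the log2 fold change was -7.77, with an SE of 0.21 and an edgeR adjusted p of 3.11e-10. The control mean was 217.7 times that after 12 h. In the abundance order it was at place 12580 after 12 h and at place 53 in the controls. At 2 h it stood at 696 and 525 CPM, between the other groups.

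The second fall was that of c75793_g1, with 33 and 26 reads after 12 h, against 3167 and 2369 reads in the controls. This made 3.11 and 2.10 CPM after 12 h, against 404 and 445 CPM in the controls; the log2 fold change was -7.35, with an SE of 0.17 and an edgeR adjusted p of 8.12e-11. At 2 h it was at 243.9 and 244.7 CPM. Both fallers have a short implied length, the median over libraries of the value that counts and FPKM give, 159 bases for c72836_g2 and 45.7 bases for c75793_g1. For c75793_g1 each library with at least 100 reads implied a value more than 10% away from that median. Such a length is the divisor behind FPKM and need not be that of the assembled transcript. Division by so short a length lifts their FPKM: c75793_g1 was at 103 and 83.1 FPKM after 12 h, against 8657 and 9953 FPKM in the controls, above the FPKM of the most abundant unigene by CPM. The changes of all 4 passed the test in all 14 other settings, with log2 fold changes between 6.52 and 7.69 for the rises and between -7.98 and -6.63 for the falls.

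Some unigenes were seen in 1 group alone. With no control read and at least 10 reads in each heat 12 h library there were 132 unigenes, 131 of them called higher, and 106 of them had a read at 2 h. With no read after 12 h and at least 10 reads in each control library there were 54, of which 52 were called lower and 26 had a read at 2 h. Among all tested, 27.6% were called higher and 24.4% lower. These sets were picked by a lack of reads in 1 group and passed the filter without it. Their calls were thus nearly fixed in advance, and the counts are descriptive. Both sets were of low level, with a median of 1.71 CPM after 12 h for the first and 3.94 CPM in the controls for the second. At 100 reads or more in each library of 1 group and none in the other there were 2 unigenes seen after 12 h and 3 seen in the controls. The reads of the second set were uneven between replicates, 4420 in control replicate 1 and 2112 in control replicate 2, a wider gap than that of the library totals. An absence of reads sets an upper limit of 3 reads and does not show absence of the transcript.

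Unigenes for which the data set a tight limit on change were also common. The 95% interval of the log2 fold change lay wholly within a 2-fold change in either direction for 7948 unigenes, of which 2252 were called and 5696 were not. For the remaining 6709 unigenes that were not called the interval reached beyond 2-fold, so a change of that size cannot be told from none. Of the 9000 unigenes in the middle class, 55.01% were limited in this way, against 12.0% of the first 100 and 16.7% of the scarcest class. The median standard error was 0.13 for the first 100, 0.14 for the middle class and 0.39 for the scarcest class. The small number among the first 100 thus went with large changes at small errors, and that among the scarcest with large errors.

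Risers and fallers were also compared by length, as implied by count, FPKM and library total. For values of 100 reads or more, 96.02% of implied lengths lay within 10% of the unigene's median. The median was 1462 bases for risers (quartiles 941 and 2130) and 1385 bases for fallers (quartiles 922 and 2025), over 4627 and 4265 unigenes with such a value. For the unigenes not called it was 1436 bases. Within the middle abundance class risers had a median of 1646 bases and fallers of 1413 bases, with overlapping quartiles.

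Unigenes of the same component were compared with each other. Of 3517 components with 2 or more tested unigenes, 417 had all of them higher, 417 had all lower, and 241 held at least 1 of each direction. Of their 7899 unigenes 24.98% were higher and 24.3% lower, against 27.6% and 24.4% of all tested. No expected number of like or unlike components was computed, so these counts are descriptive. With TREAT, 26 components held unigenes that changed by more than 2-fold in opposite directions. Such unigenes may be isoforms, related genes or copies that share reads, and the files do not tell these apart.

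At 2 h, a time that shares its controls with this comparison, the same unigenes had these values. The risers had a median log2 fold change of 1.37 at 12 h and 0.45 at 2 h, and the fallers -1.28 at 12 h and -0.43 at 2 h. Among all tested, 14.3% were called higher and 14.4% lower at 2 h against the controls. Of the 7132 risers 4692 were not called at 2 h, 2114 were higher and 326 were lower. Of the 6291 fallers 3347 were not called at 2 h, 2515 were lower and 429 were higher. In the test of heat 12 h against heat 2 h, 22.9% of all tested were higher and 22.8% lower. There heat 12 h exceeded heat 2 h for 4207 of the risers and lay under it for 423, while among the fallers heat 12 h lay under heat 2 h for 4024 and exceeded it for 134 (glmQLFTest in edgeR, Benjamini-Hochberg adjustment, threshold 0.05). Shared controls and shared 12 h libraries favour calls in the same direction, and picking by the 12 h libraries favours the larger difference at that time, so nothing is read from these counts.

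A core of the calls was made in every setting run. In all 14 other settings 3336 risers, 46.8% of those called, were again called higher, and 1776 fallers, 28.2%, were again called lower. The core risers took 29.8% and 28.1% of the reads in the heat 12 h libraries, against 6.44% and 6.37% in the controls. The core fallers took 12.7% and 12.6% after 12 h, against 50.2% and 50.8% in the controls. Of the first 100 unigenes by abundance, 72 were core fallers and 9 core risers, against 6.88% core fallers and 12.9% core risers among all tested. By size of change, the core held only 17 of the 2346 called falls under 2-fold, against 868 of the 2374 called rises under 2-fold. It held 461 of the 747 falls and 385 of the 923 rises of at least 8-fold. Settings scaled to library totals move fold changes upward, so small falls drop out of the core by construction. With each library left out in turn, 56.8% of the risers and 69.3% of the fallers were called in all 4 fits. Under both other scalings 92.1% of the risers and 51.7% of the fallers were called again. Library totals alone kept 100% of the risers and 51.7% of the fallers. The order was the other way with DESeq2 size factors in edgeR, 92.1% and 100%, and with DESeq2, 66.8% and 87.5%. Which direction was kept more often thus depended on the setting.

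**Figure D5:**
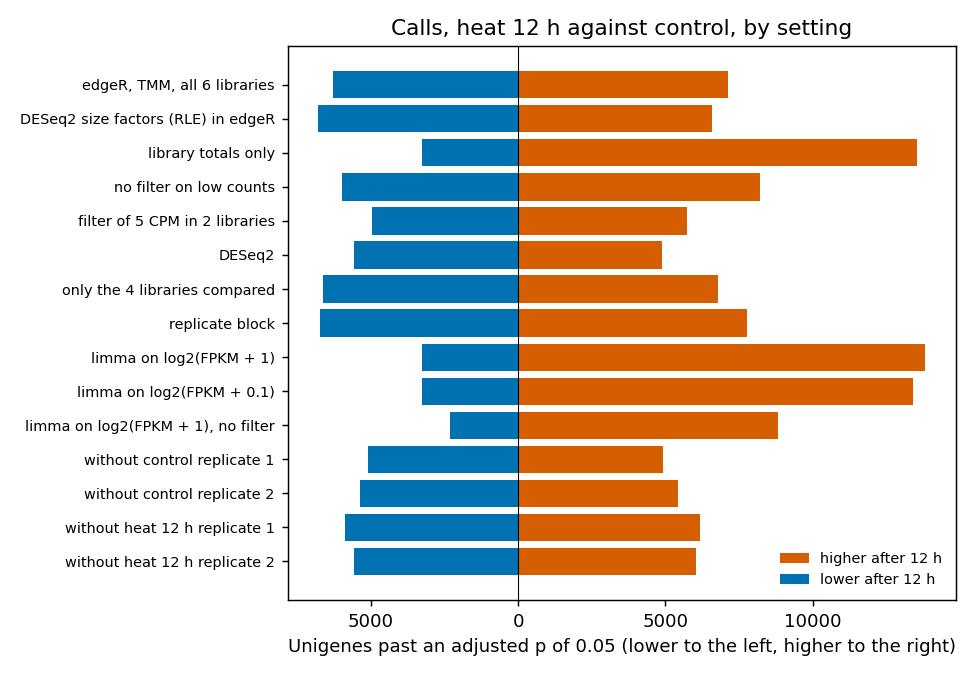
Number of unigenes called higher (to the right) and lower (to the left) after 12 h of heat against control, at an adjusted p of 0.05, in the edgeR fit with TMM scaling (top) and in the 14 other settings. The settings scaled to library totals, which include the FPKM values, call 2322 to 3265 unigenes lower and 8836 to 13823 higher.

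Without control replicate 1, 1605 unigenes were higher by more than 2-fold in place of 2462, and falls outnumbered rises in the test against 0, with 4923 higher and 5092 lower. Without control replicate 2 the numbers were 5442 higher and 5380 lower. The balance of rises and falls over all unigenes therefore changed with the control libraries as well as with the scaling.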

How the data were processed

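RNA sequencing of leaves gave 6 libraries. The authors deposited estimated counts per unigene, of which 99.3% of the values above 0 are exactly whole (tolerance 0), and FPKM values, which divide reads by unigene length and library size. DESeq 1.18.0, HTSeq 0.6.1, TopHat2 2.0.12 and Bowtie2 2.2.3 are named, with no role, in the submitters' processing notes. For the assembler, strandedness and genome build, the sources used here give nothing. Although the sheet of counts is named for tall fescue, its columns carry the bermudagrass sample names. Counts were rounded, filtered with filterByExpr (minimum count 10, minimum total 15), scaled by TMM and fitted with edgeR 4.0.16 in R 4.3.3 (glmQLFit, robust, a mean per group over all 6 libraries, 3 residual degrees of freedom), tested with glmQLFTest and glmTreat at 2-fold, with Benjamini-Hochberg adjustment over 25828 unigenes and a threshold of 0.05. The common coefficient of variation between replicates was 0.135. Standard errors come from the F statistic (absolute log2 fold change over its square root), and 95% intervals use them. Rank classes use the TMM-scaled CPM of the tested unigenes, and implied lengths use all assigned reads. Floors and read shares use library totals without TMM factors, and floors cover counting error only. Alternatives used DESeq2 1.42.0 and limma 3.58.1 on log2(FPKM + 1). The procedure was also run on simulated counts in which few unigenes were changed, as many up as down. These held no loss of the most abundant transcripts, so that run cannot judge the scaling.

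Replicates were not duplicates: the chi-square per degree of freedom between their counts was 3.60 to 8.12. IDs are given for the 2 largest rises and 2 largest falls past the threshold with at least 10 reads in each of the 4 libraries, a mean of at least 100 CPM in 1 group and no overlap between groups. The 10 most abundant unigenes are given by rank. Planned gene lists need names and could not be used. The members, classes and lists were chosen with earlier results of these data known.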

Additional observations from a re-analysis of the deposited data

Results flagged for a closer look

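The effect of heat against control differed between 12 h and 2 h, by the test of heat 12 h against heat 2 h (glmQLFTest in edgeR, Benjamini-Hochberg adjustment, threshold 0.05), for 3 of the 4 unigenes given by ID and for 9 of the 10 most abundant; among all tested 22.9% were higher and 22.8% lower in that test. The log2 fold change of heat 12 h over heat 2 h was 5.34 for c82800_g1, -6.11 for c72836_g2 and -6.56 for c75793_g1. Among the most abundant it was -2.68 for the first, 2.88 for the second, -4.19 for the third, -1.21 for the fourth and -4.72 for the fifth. It was -4.22 for the seventh, -3.11 for the eighth, -3.78 for the ninth and -2.22 for the tenth. In the second unigene both heat 12 h libraries were above both 2 h libraries, and in the others of the 10 named here both were below. The unigenes were picked by their 12 h and control values, which favours a difference at 12 h.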

How the results depend on the processing

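In the fit reported, 7132 unigenes were higher and 6291 lower, 2462 and 2464 of them by more than 2-fold, and the 100 most abundant had a median log2 fold change of -2.74. With library totals alone these values were 13555, 3252, 5698, 1437 and -2.12. Limma on log2(FPKM + 1) gave 13823 higher, 3252 lower, 843 lower by more than 2-fold and a median of -2.09, limma on log2(FPKM + 0.1) gave 13403, 3265, 1128 and -2.09, and limma without a filter gave 2322 lower, 1490 higher and 681 lower by more than 2-fold, and -2.09. DESeq2 called 959 higher by more than 2-fold. The median was -2.81 with DESeq2 and with its size factors in edgeR, -2.64 with no filter on low counts and -2.80 with the 4 compared libraries only; in rankings added after seeing the data it was -2.05 by mean log2(CPM + 0.5), -2.21 by the 2 h libraries, 0.12 by the 12 h libraries and -3.03 by the controls. The spread of this median between the heat 12 h libraries was 0.0614. Beyond their construction the causes of these shifts were not tested. With a replicate left out in turn the values ran from 4923 to 6162 higher, 5092 to 5889 lower, 1605 to 2100 higher and 1990 to 2389 lower by more than 2-fold, and -2.78 to -2.69. Replicate numbers are shared between groups without a stated pairing; the differences between replicates 1 and 2 correlated, across 11958 unigenes, at r = 0.13 between heat 12 h and control, 0.53 between heat 12 h and heat 2 h and 0.10 between heat 2 h and control, and the replicate block gave 7781 higher and 6718 lower. All 56 values of the 4 unigenes given by ID kept their call. Of the counts per abundance class 88 kept within 1.5 times and 24 did not. FPKM in place of reads, or thinning, moved 9 of 10 library values by more than 1 SD, and the heat 12 h and control values kept their order in all 5 pairs. Depth limits calls among the scarcest unigenes, and 2 libraries a group limit all.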
